A study of Rattus norvegicus albus with 14 samples.

Results

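The hypoxia-inducible factor (HIF) pathway genes described here are 10 rat genes chosen by symbol: Hif1a, Epas1, Egln1, Egln3, Vegfa, Bnip3, Adm, Ndrg1, Ddit4 and Ankrd37. They are 10 of the 32545 genes in the count tables, each paired with 1 Ensembl gene ID. All 10 passed the filter on low counts that left 15655 genes for testing. RNA had been sequenced from neonatal rat ventricular myocytes, heart muscle cells isolated from 1-day-old Sprague-Dawley rats, pooled, preplated against fibroblasts and cultured on fibronectin. One group, with 1 library, received the vehicle, 1% DMSO, for 0.5 h. The other 3 groups, with 2 libraries each, received 10 µmol/L rosiglitazone, an agonist of the nuclear receptor PPARγ, in 1% DMSO for 0.5, 24 or 48 h. All groups were in a serum-free medium with insulin, transferrin and selenium, and the labels name no genetic change and no oxygen level. Vehicle was analysed here at 0.5 h alone, so hours with the drug and hours in culture cannot be told apart. Nothing in the labels ties the libraries to separate cultures or isolations, and the spread that the p-values use may therefore be technical.

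HIF is a transcription factor made of an oxygen-sensitive α subunit, encoded by Hif1a or by Epas1 (HIF-2α), and a stable partner encoded by Arnt. In the presence of oxygen, prolyl hydroxylases of the Egln family mark the α subunits, which the VHL ubiquitin ligase then sends to the proteasome. When oxygen is scarce the α subunits accumulate and raise the transcription of genes for blood vessel growth, glycolysis, mitophagy and growth restraint, which in heart muscle lowers the demand for oxygen. This control acts mainly on the protein, so a transcript level of Hif1a is not a measure of HIF activity, and several of the target genes also answer to other stress pathways.

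Libraries held 10886559 to 28074620 counts, and replicate 2 of 48 h was the shallowest. Each library had been deposited as 2 splits, which differed by less than the sampling noise allows to resolve (smallest chi-square p of 7 pairs 0.112) and were summed to 1 sample. The pair of libraries at 24 h stood furthest apart: 36.0% of the tested genes differed by more than 2-fold between replicates, against 24.9% at 48 h and 13.1% at 0.5 h. The summed level of 11 cardiomyocyte markers was 8605 to 15469 CPM (read counts scaled to a common library size) at 0.5 h, 11524 and 2952 at 24 h, and 389 and 1752 at 48 h, for replicates 1 and 2. All 11 were lower in replicate 1 of 48 h than in replicate 2. The 9 fibroblast markers, which preplating should have reduced, summed to 50097 to 51637 CPM at 0.5 h and 17357 to 35053 later. At 0.5 h most of that sum was Col1a1 and Col3a1. Of the 9 markers 4 lay lower and 1, Dcn, higher in all late libraries (808 to 994 and 1712 to 8477 CPM). The 8 endothelial markers summed to 176 to 210 CPM at 0.5 h and 44.5 to 109 later, and the 10 macrophage markers to 948 in DMSO, 273 and 369 with rosiglitazone at 0.5 h and 168 to 452 later. Smooth muscle markers (8) went from 3914 to 4649 CPM to 334 to 1443, epicardial markers (6) from 345 to 380 to 83.6 to 236, and red blood cell markers (5) were at 108 to 355 and 156 to 423. No matched marker of these lists was at 0 in every library. In such bulk samples, fewer cells of a type and less RNA per cell cannot be told apart, and the part of cell composition in the results below was not tested.

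The main pattern was a set of 5 genes, Hif1a, Egln3, Vegfa, Bnip3 and Ddit4, that lay higher in each of the 4 libraries of 24 and 48 h than in any of the 3 libraries of 0.5 h. That order, late libraries higher, held for 14.2% of all tested genes and for 5 of the 10 HIF genes. The opposite order held for 19.5% of all genes and for 0 of the 10. Egln1, Epas1, Adm, Ndrg1 and Ankrd37 overlapped between early and late libraries. For the late libraries together against all libraries of 0.5 h, 4 genes rose by edgeR's quasi-likelihood test: Ddit4, Egln3, Bnip3 and Vegfa. In that comparison 11.4% of all tested genes were called in either direction and 4.11% as higher. For 48 h against 0.5 h of rosiglitazone, Ddit4 and Egln3 rose, against 6.59% of all genes called in either direction and 1.97% called as higher. When each library was left out in turn, 1 to 4 of the 10 genes were called for the late libraries and 0 to 3 for 48 h, with 2 and 0 called without replicate 1 of 48 h. These comparisons share the rosiglitazone libraries of 0.5 h, so their values are set side by side and not counted as separate support.

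**Figure D1:**
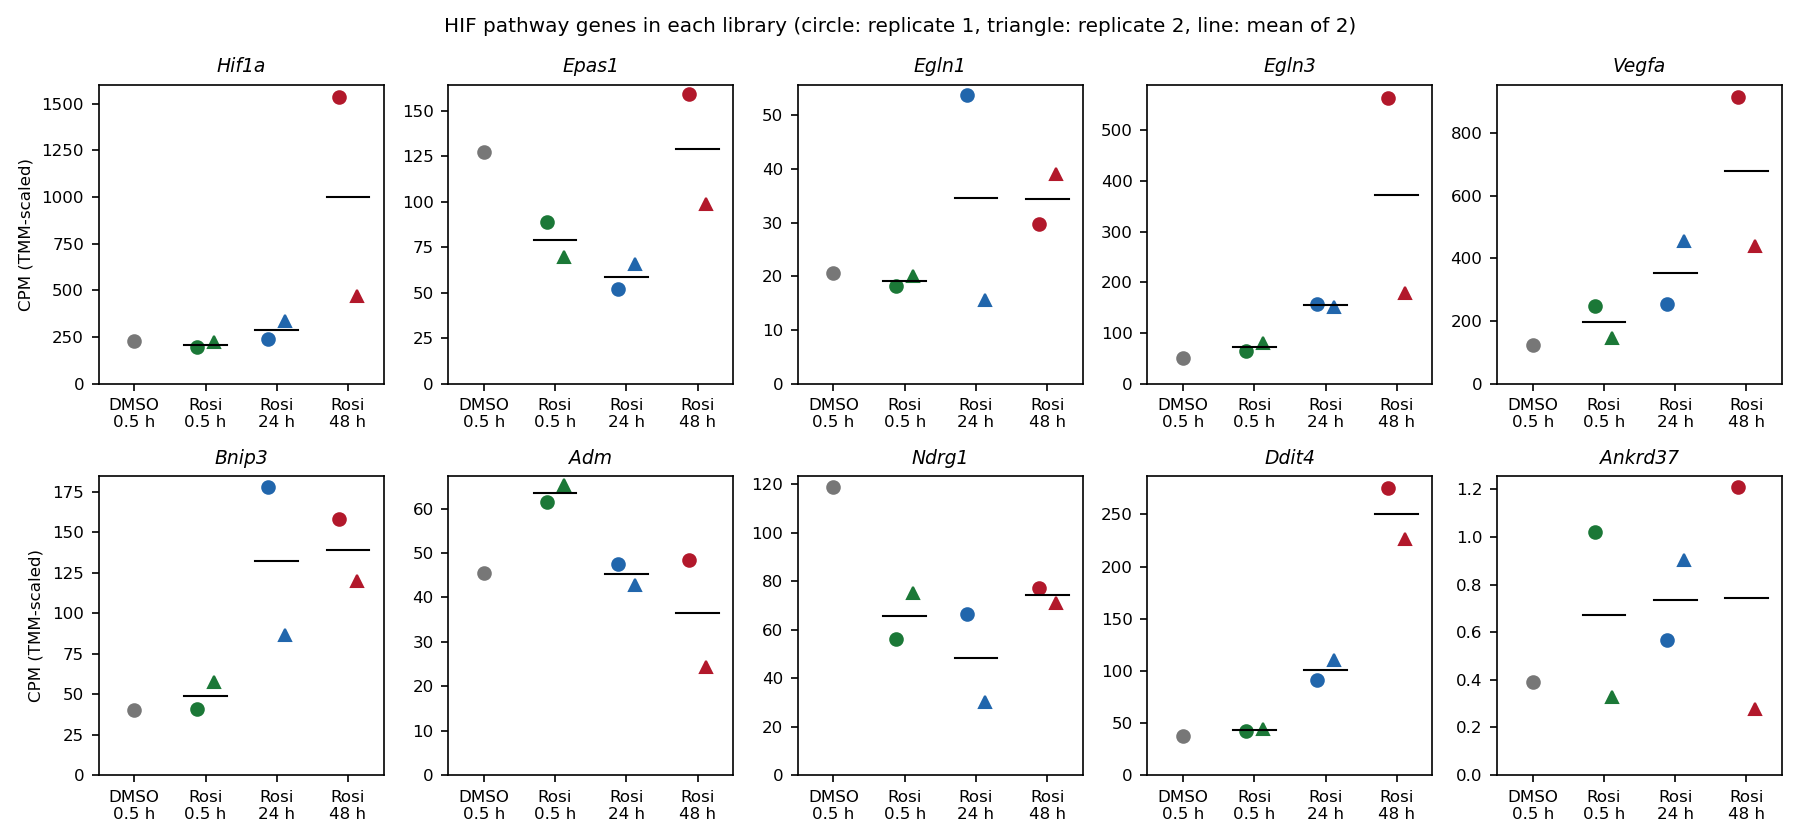
Level of each of the 10 genes in each of the 7 libraries, in CPM after TMM scaling on linear axes that start at 0; circles are replicate 1, triangles replicate 2, and lines the mean of the 2 libraries of a group. Ddit4 climbs from 37.8 to 44.3 CPM at 0.5 h to 226 and 275 at 48 h with close replicates, whereas Hif1a at 48 h is at 1535 in replicate 1 and 468 in replicate 2.

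Of the α subunits, Hif1a was at 226 CPM in DMSO and at 197 and 220 in replicates 1 and 2 of rosiglitazone at 0.5 h. It was at 239 and 334 at 24 h and at 1535 and 468 at 48 h. The 0.5 h libraries lay within a narrow band, every later library lay above it, and replicate 1 of 48 h stood 3.28-fold above replicate 2. That value rests on 41928 reads in replicate 1 and 5028 in replicate 2, so counting error is small beside the gap. The fitted log2 fold change of Hif1a was 2.26 ± 0.54 (SE) for 48 h against 0.5 h, and its adjusted p of 0.0518 missed the threshold of 0.05. It passed in 4 of 7 alternative settings at log2 fold changes of 2.23 to 2.27. These were DESeq2 (adjusted p = 0.00035), no filter (0.0430), just the groups compared (0.0477) and splits as replicates (0.00026). The last takes the splits of a library as independent, which they are not. Hif1a did not pass with a replicate block (2.16, adjusted p = 0.120). Without replicate 1 of 48 h the log2 fold change was 1.13 (adjusted p = 0.202), and without replicate 2 it was 2.88 (adjusted p = 0.0299). Over all late libraries it was 1.32 ± 0.41 (adjusted p = 0.0792), and 1.63 (0.0269) without replicate 2 of 48 h. The authors' deposited table for 48 h against 24 h gives Hif1a a log2 fold change of 1.53 ± 0.37 (adjusted p = 0.000759), and that table has a separate column for each split of a library.

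Epas1, which encodes HIF-2α and is best known from vessels, followed another course. It was at 127 CPM in DMSO, 88.7 and 69.6 with rosiglitazone at 0.5 h, 52.1 and 65.5 at 24 h, and 159 and 98.9 at 48 h. The level was thus lowest at 24 h and highest in replicate 1 of 48 h, with DMSO between the libraries of 48 h. Its log2 fold change was 1.13 ± 0.32 for 48 h against 24 h (unadjusted p = 0.00901, adjusted p = 0.361) and -0.43 ± 0.32 for 24 h against 0.5 h (adjusted p = 0.535). Against DMSO at 0.5 h it was -0.68 ± 0.38 (adjusted p = 1.00).

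The ratio of Hif1a to Epas1 reads within a library does not depend on depth or on the scaling. It was 1.78 in DMSO, 2.22 and 3.17 with rosiglitazone at 0.5 h, 4.59 and 5.10 at 24 h, and 9.67 and 4.73 at 48 h. All 4 late libraries lay above all 3 libraries of 0.5 h, and replicate 2 of 48 h lay with the libraries of 24 h. The ratio was examined after the values of both genes had been seen, so it is a description with no test.

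**Figure D2:**
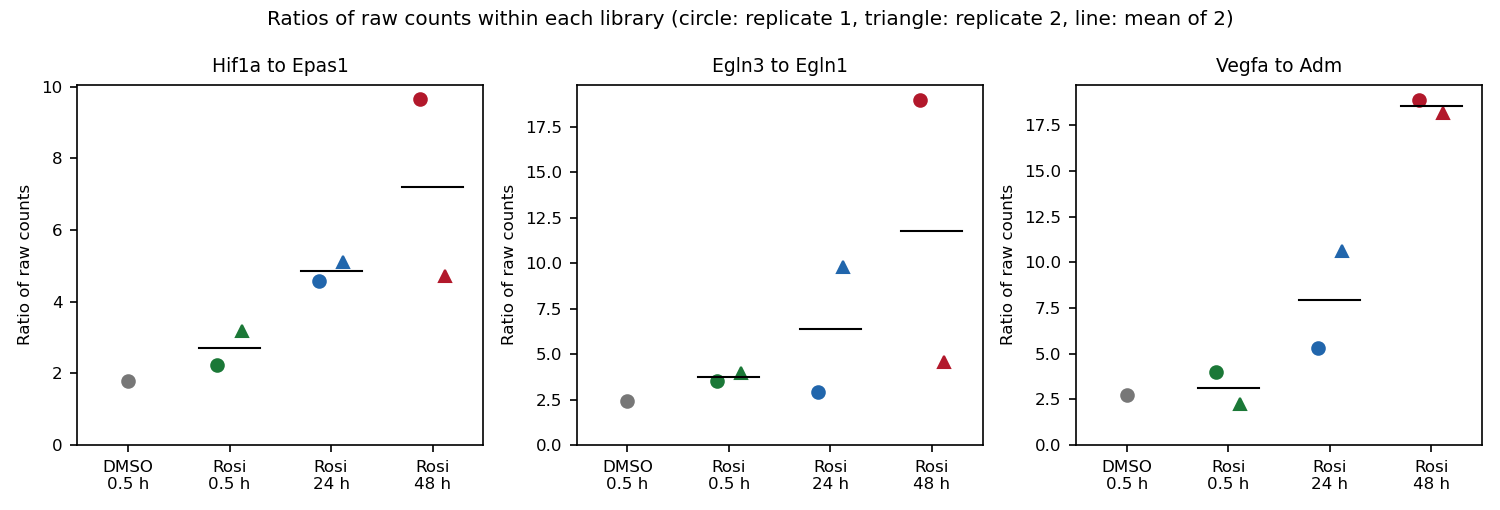
Ratio of raw read counts of pairs of HIF pathway genes within each library, on linear axes from 0; circles are replicate 1, triangles replicate 2, and lines the mean of 2 libraries. The ratio of Hif1a to Epas1 is 1.78 to 3.17 at 0.5 h and 4.59 to 9.67 later, and that of Vegfa to Adm is 18.9 and 18.2 at 48 h against 2.24 to 4.0 at 0.5 h.

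Among the prolyl hydroxylases, Egln3 (PHD3), itself a well-known HIF target, rose, while Egln1 (PHD2), the main oxygen sensor for HIF-1α, split between replicates. Egln3 was at 49.6 CPM in DMSO, 64.3 and 79.3 with rosiglitazone at 0.5 h, 158 and 151 at 24 h, and 565 and 179 at 48 h. The replicates of 24 h differed by 1.05-fold and those of 48 h by 3.16-fold, with the same library high as for Hif1a. Its log2 fold change was 2.37 ± 0.51 for 48 h against 0.5 h (edgeR adjusted p = 0.0400) and 1.92 ± 0.40 for all late against all 0.5 h libraries (adjusted p = 0.0251). Leaving out libraries in turn, the 48 h value ranged from 1.28 to 2.98, lowest without replicate 1 of 48 h (adjusted p = 0.139). In these fits the 48 h call held in 1 of 7 and the late call in 2 of 7. At 24 h against 0.5 h the log2 fold change of 1.11 ± 0.49 did not pass (adjusted p = 0.334).

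Egln1 was at 20.5 CPM in DMSO and 18.2 and 20.1 with rosiglitazone at 0.5 h. At 24 h it was at 53.8 in replicate 1 and 15.5 in replicate 2, the highest and the lowest value of the series, and at 48 h at 29.8 and 39.1. The fitted change at 24 h, a log2 fold change of 0.85 ± 0.55 (adjusted p = 0.480), therefore stands for neither library. It was -0.31 without replicate 1 of 24 h (adjusted p = 0.612) and 1.47 without replicate 2 (0.0488), and the late value of 0.82 ± 0.42 (0.253) became 1.11 (0.0119) without replicate 2. Both libraries of 48 h lay above the 3 libraries of 0.5 h, an order whose share over all genes was not counted. The log2 fold change of 0.84 ± 0.55 for 48 h against 0.5 h did not pass (adjusted p = 0.413). The ratio of Egln3 to Egln1 reads was 2.42 in DMSO, 3.52 and 3.95 with rosiglitazone at 0.5 h, 2.94 and 9.79 at 24 h and 19.0 and 4.58 at 48 h, and overlapped between early and late libraries.

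Vegfa, which encodes the main growth factor of endothelial cells, rose over the late libraries. It was at 123 CPM in DMSO, 247 and 147 with rosiglitazone at 0.5 h, 253 and 455 at 24 h, and 916 and 441 at 48 h. The late libraries cleared the early ones narrowly, since replicate 1 of 24 h was close to replicate 1 of 0.5 h. The log2 fold change was 1.54 ± 0.37 for late against all 0.5 h libraries (edgeR adjusted p = 0.0396), a 2.91-fold higher level. The call was lost without DMSO (adjusted p = 0.121), without either rosiglitazone library of 0.5 h (0.0886 and 0.125), and without replicate 1 of 48 h (0.112). For 48 h against 0.5 h the log2 fold change was 1.79 ± 0.48 (adjusted p = 0.0720). The authors' deposited table gives Vegfa 0.83 ± 0.30 at 24 h against 0.5 h (adjusted p = 0.0149). That table too has a separate column for each split of a library.

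Adm, which encodes the vasodilator peptide adrenomedullin and is a classical HIF target, did not move with Vegfa. It was at 45.4 CPM in DMSO, 61.6 and 65.3 with rosiglitazone at 0.5 h, 47.6 and 42.8 at 24 h, and 48.5 and 24.3 at 48 h. The rosiglitazone libraries of 0.5 h were the highest of the 7, and the later libraries lay around or below DMSO. The log2 fold change was -0.80 ± 0.37 for 48 h against 0.5 h (adjusted p = 0.249) and 0.48 ± 0.46 for rosiglitazone against DMSO at 0.5 h (adjusted p = 1.00). Vegfa reads outnumbered Adm reads by 2.72 in DMSO, 4.0 and 2.24 with rosiglitazone at 0.5 h, 5.31 and 10.6 at 24 h, and 18.9 and 18.2 at 48 h. This ratio within a library separated early from late, and its values at 48 h were close although the replicates differed 2.08-fold in Vegfa and 2.00-fold in Adm.

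Bnip3, which encodes a mitochondrial outer membrane protein that recruits the autophagy machinery, rose over the late libraries. It was at 40.4 CPM in DMSO, 40.7 and 57.3 with rosiglitazone at 0.5 h, 178 and 86.7 at 24 h, and 158 and 120 at 48 h. All 4 late libraries lay above the 3 early ones, and those of 24 h and 48 h overlapped each other. The log2 fold change of Bnip3 was 1.56 ± 0.31 for late against 0.5 h libraries (edgeR adjusted p = 0.0229), 1.43 ± 0.40 for 24 h against 0.5 h (adjusted p = 0.156) and 0.07 ± 0.39 for 48 h against 24 h (adjusted p = 1.00). The 24 h value was 1.85 (0.0342) without replicate 2 of 24 h and 0.82 (0.155) without replicate 1. The late call was lost without DMSO (0.0621), either rosiglitazone library of 0.5 h (0.103 and 0.0628) or either library of 48 h (0.0766 and 0.0506). The Bnip3 to Hif1a read ratio was 0.179 to 0.260 at 0.5 h, 0.745 and 0.259 at 24 h, and 0.103 and 0.257 at 48 h. Replicate 1 of 24 h had the highest ratio and replicate 1 of 48 h the lowest.

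Ddit4 (REDD1), which restrains the growth kinase complex mTORC1, rose with close replicates. It was at 37.8 CPM in DMSO, 42.1 and 44.3 with rosiglitazone at 0.5 h, 90.7 and 110 at 24 h, and 275 and 226 at 48 h. Each time step was larger than the gap between replicates, which was at most 1.22-fold at every time. The log2 fold change was 1.22 ± 0.26 for 24 h against 0.5 h (adjusted p = 0.107), 1.32 ± 0.26 for 48 h against 24 h (adjusted p = 0.281) and 2.54 ± 0.27 for 48 h against 0.5 h (edgeR adjusted p = 0.00719, a 5.81-fold higher level). The 24 h value passed without replicate 1 of 24 h (1.35, adjusted p = 0.0235), and the second-day value without replicate 2 (1.45, 0.0352). Ddit4 ranked 42 of 15655 genes by p for 48 h against 0.5 h. For late against all 0.5 h libraries it was 1.94 ± 0.21 (adjusted p = 0.00450), and this call held in each of the 7 fits that left out 1 library. The 48 h call was lost without either rosiglitazone library of 0.5 h (adjusted p = 0.0825 and 0.0565) and without replicate 1 of 48 h (0.0685), with log2 fold changes of 2.48, 2.58 and 2.35.

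Ndrg1, a HIF target that is also induced by iron loss and by differentiation, was highest in DMSO. It was at 119 CPM there, 56.0 and 75.2 with rosiglitazone at 0.5 h, 66.3 and 30.2 at 24 h, and 77.4 and 71.1 at 48 h. All 6 rosiglitazone libraries lay below the single DMSO library, and the share of all genes in that order was not counted. The macrophage markers were also highest in that DMSO library, at 948 CPM against 273 and 369 with rosiglitazone at 0.5 h. The part of macrophages in the Ndrg1 level was not tested. The log2 fold change against DMSO at 0.5 h was -0.86 ± 0.47 (adjusted p = 1.00). With only the 3 libraries of 0.5 h in the fit, that log2 fold change had the same size. Ndrg1 passed the threshold in that fit, unlike in the main one. The replicate spread then came from the rosiglitazone libraries alone, and 1 DMSO library shows no spread of its own. Between times the log2 fold change was -0.44 ± 0.40 at 24 h and 0.62 ± 0.40 for 48 h against 24 h (adjusted p = 0.613 and 0.754). The late value of -0.42 ± 0.30 (adjusted p = 0.400) was -0.76 (0.0328) without replicate 1 of 24 h.

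Ankrd37, an ankyrin repeat gene known as a HIF-1 target, was near the limit of detection. Its counts were 11 in DMSO, 29 and 9 with rosiglitazone at 0.5 h, 13 and 24 at 24 h, and 33 and 3 at 48 h, or 0.279 to 1.21 CPM. A count of 0 would allow up to 0.276 CPM in the shallowest library and 0.107 in the deepest. Differences of the size seen in the other genes were not detectable at this depth, and the SE of its log2 fold changes was 1.25 to 2.07.

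**Figure D3:**
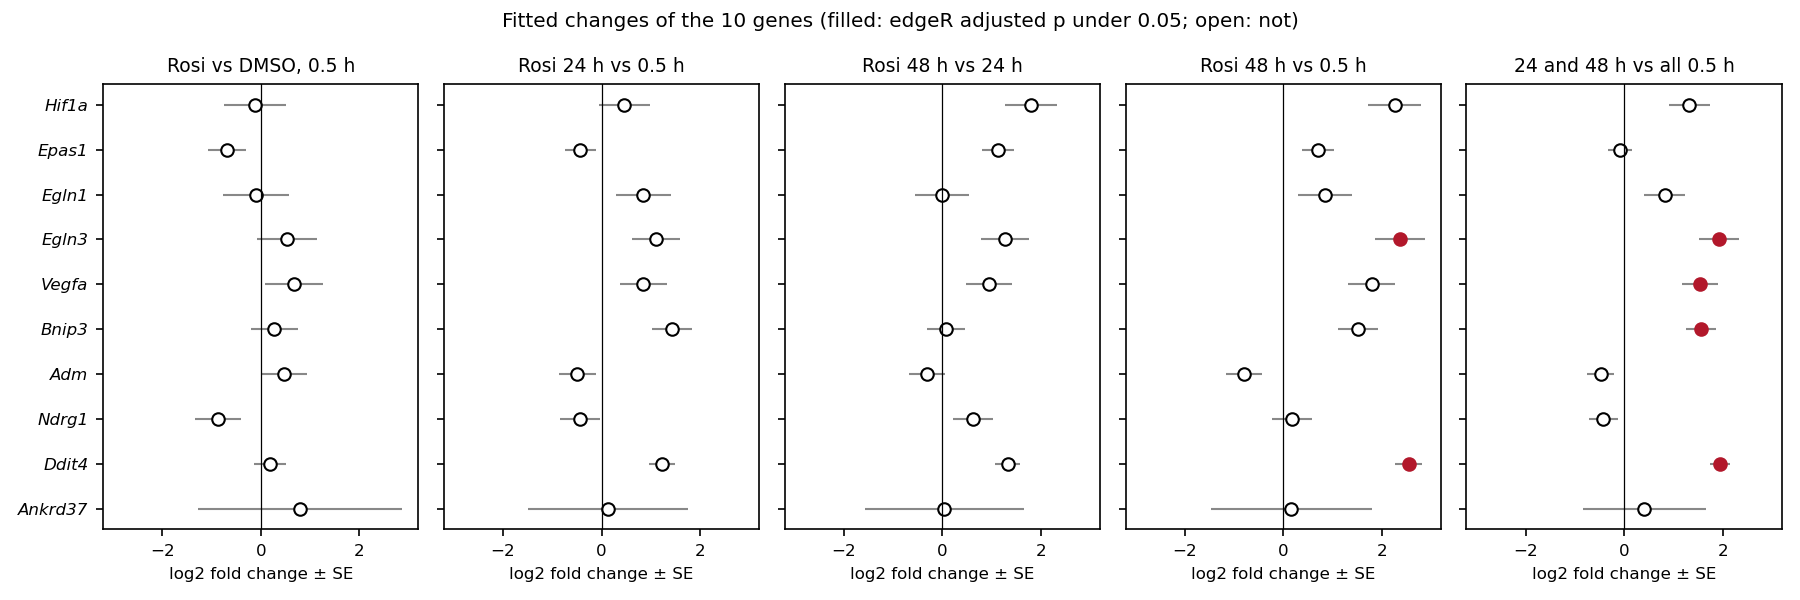
Log2 fold change of each of the 10 genes in 5 comparisons, with bars of 1 SE, from 1 edgeR fit to 7 libraries; filled points passed an adjusted p of 0.05. Filled points are Egln3 and Ddit4 for 48 h against 0.5 h and Egln3, Vegfa, Bnip3 and Ddit4 for the late against all 0.5 h libraries.

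Rosiglitazone against DMSO at 0.5 h asks which transcripts differ soon after the drug is added, with vehicle cells of the same age. By edgeR 0 of the 10 genes were called, 0% of all genes were, and 0 of the 10 had an unadjusted p under 0.05, against 0.607% of all genes. DESeq2 called 0 of the 10 and 0.0128% of all genes. The 10 log2 fold changes ran from -0.86 for Ndrg1 to 0.79 for Ankrd37, with a median of 0.24 beside 0.01 over all genes. With 1 DMSO library a difference between treatments cannot be told apart from a difference between libraries. The authors' deposited table calls 4 of the 10 genes in this comparison, Adm (0.46 ± 0.10) and Egln3 (0.49 ± 0.13) as higher and Ndrg1 (-0.77 ± 0.15) and Epas1 (-0.62 ± 0.14) as lower, beside 11.0% of its genes. That table holds the 1 DMSO library as 2 columns, which are splits of it.

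For 24 h against 0.5 h, which asks what changed over the first day, 0 of the 10 genes passed by edgeR beside 0.0958% of all genes. Ddit4 and Bnip3 had an unadjusted p under 0.05 (0.00180 and 0.00782), as had 15.7% of all genes. DESeq2 called these 2 genes as well (adjusted p = 0.00216 and 0.0196), and 8.39% of all genes. The median log2 fold change of the 10 genes was 0.65 beside -0.03 over all genes, and 7 of 10 were positive. The authors' deposited table has 7 of the 10 called, 5 higher and 2 lower (Adm and Epas1), beside 39.0% of its genes.

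Over the second day, 48 h against 24 h, edgeR again called 0 of the 10 and 0% of all genes. Hif1a, Epas1, Egln3 and Ddit4 had an unadjusted p under 0.05 (0.0104, 0.00901, 0.0354 and 0.00114), as had 8.14% of all genes. DESeq2 called Hif1a (adjusted p = 0.0271) and Ddit4 (0.00199), and 3.48% of all genes. The median of the 10 log2 fold changes was 0.78 beside -0.01 over all genes, with 8 of 10 positive. The authors' deposited table calls 4 of the 10, all higher (Hif1a, Epas1, Egln3 and Ddit4), beside 16.5% of its genes. Over the whole course, 48 h against 0.5 h, the median of the 10 was 1.17 beside -0.07 over all genes, and Adm was the gene with a negative value.

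Replicate 1 of 48 h, in which Hif1a, Epas1, Egln3, Vegfa, Ddit4 and Ankrd37 were highest, also stood apart in other ways. Between replicates 1 and 2 of 48 h, 4 of the 10 genes differed by more than 2-fold (Hif1a, Egln3, Vegfa and Ankrd37), beside 24.9% of all genes, and each was higher in replicate 1. In that library the cardiomyocyte markers were at 389 CPM against 1752 in replicate 2. Of the fibroblast markers, 7 of 9 were lower in replicate 1, with Col1a1 at 4750 against 10584 CPM and Col3a1 at 2239 against 13091, whereas Dcn was higher (8477 against 4549). Ddit4, Bnip3, Egln1 and Ndrg1 differed by at most 1.31-fold between these libraries. At 24 h, Egln1, Bnip3 and Ndrg1 differed by more than 2-fold, beside 36.0% of all genes, and each was higher in replicate 1. The cardiomyocyte markers of that library summed to 11524 CPM, within the 8605 to 15469 of 0.5 h, against 2952 in replicate 2. Within that sum single markers went both ways. Myh6 was at 385 CPM in replicate 1 of 24 h (963 to 1212 at 0.5 h) and Tnnt2 at 3215 (1289 to 2198). Of the 11 markers, 6 lay lower and 0 higher in all late libraries, beside 19.5% and 14.2% of all tested genes. Hif1a, Epas1, Vegfa, Ddit4 and Ankrd37 were higher in replicate 2 of 24 h. Whether cell composition accounts for these gaps was not tested.

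Among 16 further regulators of HIF, 15 were tested, and 2 changed for late against 0.5 h libraries: Rbx1, the RING subunit of the VHL ligase, rose and Arnt2, a partner related to Arnt, fell. In that comparison 4.11% of all genes were called as higher and 7.29% as lower. Arnt2 was at 31.6 to 41.2 CPM at 0.5 h and 4.15 to 9.22 later (log2 fold change -2.67, adjusted p = 0.00704), and it fell for 48 h against 0.5 h as well (-2.94, adjusted p = 0.0187). The share of all genes called as lower at 48 h was 4.62%. Rbx1 was at 37.8 to 55.2 CPM at 0.5 h and 75.0 to 109 later (1.01, adjusted p = 0.0395). Vhl, the substrate receptor of that ligase, was at 47.9 to 58.7 and 70.9 to 122 CPM (0.81, adjusted p = 0.0566). The median of the 15 was 0.10 beside -0.07 over all genes. At 24 h against 0.5 h, edgeR called 0 of 15, and Arnt2 and Rbx1 had an unadjusted p under 0.05 (0.00105 and 0.0214), while DESeq2 called 1 as lower. Of all genes 15.7% had such an unadjusted p, and DESeq2 called 8.39% in either direction.

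HIF also drives glucose uptake and glycolysis, and of 19 tested genes of that branch 2, Slc2a1 and Hk2, rose by edgeR. EdgeR called 4.11% of all genes as higher in the late comparison and 1.97% for 48 h against 0.5 h. DESeq2 called 6 of the 19 as higher in the late comparison. Its number of called genes over all genes is given with the alternative settings below, for both directions together. A share of all genes that DESeq2 called as higher is not given beside this count. Slc2a1, the glucose transporter GLUT1, was at 125 CPM in DMSO, 88.5 and 120 with rosiglitazone at 0.5 h, 316 and 357 at 24 h, and 708 and 534 at 48 h. Its log2 fold change was 2.57 for 48 h against 0.5 h (adjusted p = 0.0106) and 2.04 for late against 0.5 h (0.00539). Hk2, the hexokinase that traps glucose, was at 62.2 to 76.5 CPM at 0.5 h, 166 and 261 at 24 h, and 328 and 245 at 48 h (late log2 fold change 1.84, adjusted p = 0.00786). The median of the 19 was 0.46 late beside -0.07 over all genes, and 14 were positive beside 46.9% of all genes. In all late libraries 6 lay higher, beside 14.2% of all genes: Slc2a1, Hk2, Aldoa, Pfkp, Pgam1 and Pkm. At 24 h against 0.5 h, edgeR called 0 of 19, with the smallest p for Slc2a1 and Hk2 (adjusted p = 0.0812 and 0.0869). In that comparison 4 of the 19 had an unadjusted p under 0.05, all higher, beside 6.55% of all genes. DESeq2 called 2 as higher, beside 8.39% of all genes in either direction.

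Other known HIF targets split. Of 33 tested, 3 rose and 5 fell for late against 0.5 h by edgeR, beside 4.11% and 7.29% of all genes. For 48 h against 0.5 h these shares were 1.97% and 4.62%. DESeq2 called 8 of the 33 as higher and 7 as lower in the late comparison. Its number over all genes is given below for both directions together, so these counts have no matching share by direction. Those that rose were Tfrc, the transferrin receptor (113 to 140 CPM at 0.5 h and 189 to 349 later, adjusted p = 0.0322), Ero1a, an oxidase of protein folding (69.6 to 75.9 and 118 to 159, adjusted p = 0.0296), and Higd1a, a mitochondrial protein (31.8 to 47.4 and 68.4 to 177, adjusted p = 0.0379). Of the 5 that fell, Lox, Loxl2, Plod2 and P4ha1 encode enzymes that modify or crosslink collagen, whereas the related Plod1 (152 to 195 CPM at 0.5 h and 172 to 254 later, adjusted p = 0.251) and P4ha2 (160 to 189 and 74.2 to 172, adjusted p = 0.274) overlapped between early and late. The lysyl oxidase Lox was at 558 to 607 CPM at 0.5 h and 42.5 to 177 later (log2 fold change -2.71, adjusted p = 0.0154), and Loxl2 at 194 to 228 and 35.9 to 116 (-1.59, adjusted p = 0.0210). The lysyl hydroxylase Plod2 was at 670 to 750 and 244 to 402 CPM (-1.13, adjusted p = 0.0138), and the prolyl hydroxylase P4ha1 at 481 to 543 and 260 to 328 (-0.83, adjusted p = 0.0372). The fifth was Edn1, the vasoconstrictor endothelin-1, at 19.9 CPM in DMSO, 69.0 and 51.9 with rosiglitazone at 0.5 h, and at most 1.02 later (adjusted p = 0.00539). For 48 h against 0.5 h, Cp, the ferroxidase ceruloplasmin, rose (171 and 182 CPM against 66.8 and 84.5, adjusted p = 0.0358), and Edn1, Lox and Loxl2 fell (adjusted p = 0.0195, 0.0406 and 0.0355). Beside these, the fibroblast markers Col1a1 (26088 to 27690 CPM at 0.5 h and 4750 to 15006 later) and Col3a1 (18347 to 20161 and 2239 to 14489) also lay lower in the late libraries, while Dcn lay higher. The part of fibroblasts in the fall of Lox, Loxl2, Plod2 and P4ha1 was not tested.

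While Vegfa rose, 3 of the receptors for its product fell. Of 8 tested receptor genes for VEGF-A and adrenomedullin, 0 rose and 3 fell for late against 0.5 h (0 and 3 by DESeq2). By edgeR 4.11% of all genes rose and 7.29% fell, and the DESeq2 number over all genes is given below for both directions together. By unadjusted p 1 rose and 4 fell, beside 12.1% and 16.4% of all genes. The 3 called genes were the VEGF receptors Kdr and Flt1 and the coreceptor Nrp1. They also fell for 48 h against 0.5 h, where 4.62% of all genes fell. Kdr was at 17.3 to 19.1 CPM at 0.5 h, 11.8 and 5.20 at 24 h, and 1.68 and 1.21 at 48 h (log2 fold change -3.69 for 48 h against 0.5 h, adjusted p = 0.0163). Flt1 was at 30.5 to 50.5 CPM at 0.5 h and 11.2 to 28.7 later (-1.27 late, adjusted p = 0.0224), and Nrp1 at 210 to 224 and 89.9 to 131 (-1.0, adjusted p = 0.0166). Nrp2, another VEGF coreceptor, overlapped between early and late, at 180 CPM in DMSO, 110 and 96.4 with rosiglitazone at 0.5 h, 73.8 and 101 at 24 h, and 342 and 104 at 48 h (1.11 for 48 h against 0.5 h, adjusted p = 0.249). Calcrl, which encodes a subunit of the adrenomedullin receptor, was at 35.1 to 49.5 CPM at 0.5 h, 57.7 and 32.3 at 24 h, and 117 and 82.6 at 48 h (1.49 for 48 h against 0.5 h, adjusted p = 0.0538). Ramp1, Ramp2 and Ramp3, for the other subunits, had -0.98, -2.82 and 0.77 in that comparison (adjusted p = 0.265, 0.115 and 0.759). Kdr was also among the 8 endothelial markers, of which 5 lay lower in all late libraries and 0 higher. The shares of all genes in these orders were 19.5% and 14.2%. Whether these values follow the number of endothelial cells was not tested.

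**Figure D4:**
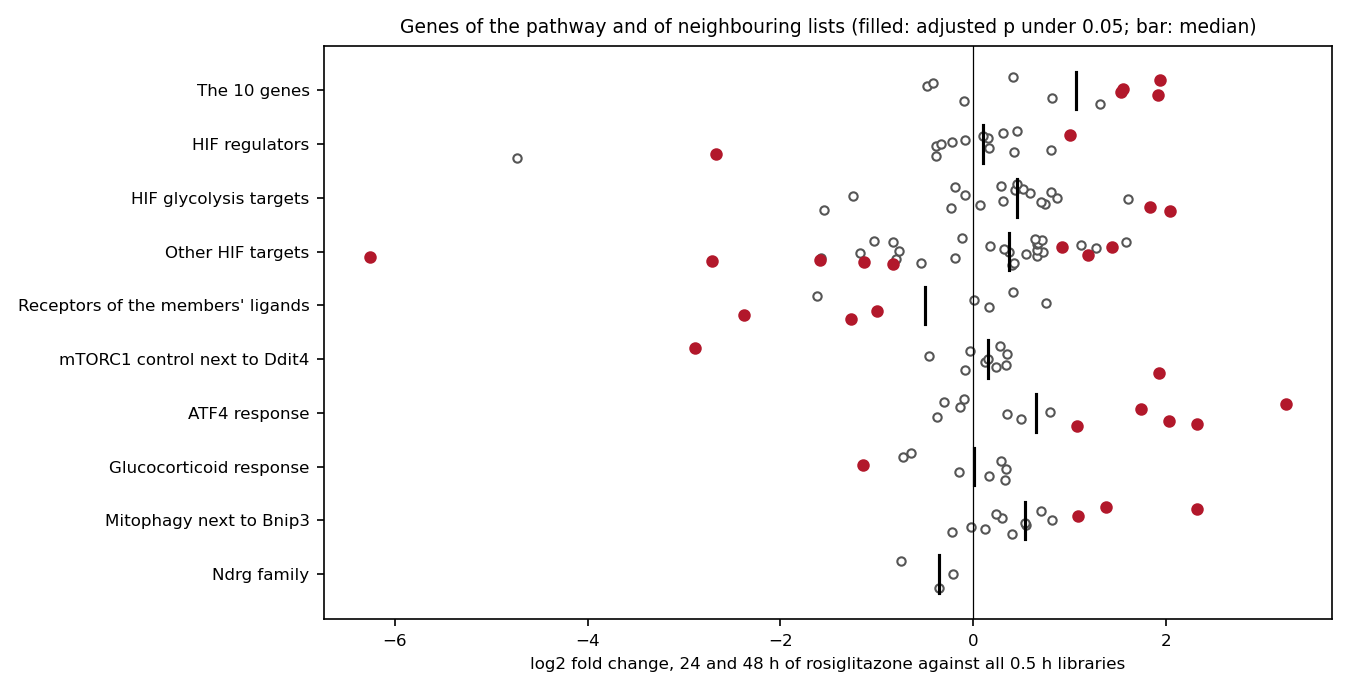
Log2 fold change for the late libraries of 24 and 48 h against all libraries of 0.5 h, for the 10 genes and 9 lists of neighbouring genes; each point is a gene, filled where the adjusted p was under 0.05, and bars mark medians. The 10 genes have a median of 1.07, the ATF4 list 0.65 with 5 genes that rose, and the receptors -0.50 with 3 that fell.

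Ddit4 is known to answer to other inputs besides HIF, among them the stress factor ATF4 and glucocorticoids. Of 12 tested genes of the ATF4 response, 5 rose for late against 0.5 h and 0 fell: Trib3, Ddit3, Atf4, Ppp1r15a and Slc7a11. Of all genes 4.11% were called as higher and 7.29% as lower in that comparison. The late log2 fold change was positive for 8 of the 12 and negative for 4. Trib3, a pseudokinase, was at 75.0 to 109 CPM at 0.5 h, 185 and 367 at 24 h, and 482 and 470 at 48 h (late log2 fold change 2.03, adjusted p = 0.00847). Ddit3 (CHOP) was at 41.4 to 59.6 CPM and later at 133 to 323 (2.32, adjusted p = 0.0116), and Atf4 itself at 515 to 607 and 959 to 1257 (1.08, adjusted p = 0.0234). For 48 h against 0.5 h, Trib3, Ddit3 and Atf4 rose (adjusted p = 0.0151, 0.0342 and 0.0474), beside 1.97% of all genes. Of 8 glucocorticoid response genes, 0 rose and 1, the kinase gene Sgk1, fell (97.7 CPM in DMSO, 47.7 and 54.6 with rosiglitazone at 0.5 h and 21.1 to 38.8 later, adjusted p = 0.0391). The part of ATF4 or of glucocorticoids in the Ddit4 level was not tested.

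Among 11 tested regulators of mTORC1 beside Ddit4, its paralog Ddit4l rose and Deptor, an inhibitor of mTOR, fell. That was for late against 0.5 h, where 4.11% of all genes were called as higher and 7.29% as lower. Ddit4l was at 6.59 to 7.67 CPM at 0.5 h and 21.6 to 39.7 later (log2 fold change 1.93, adjusted p = 0.0138), and it rose for 48 h against 0.5 h too (2.10, adjusted p = 0.0315). Deptor was at 6.69 to 11.5 CPM at 0.5 h and 0.481 to 1.95 later (-2.89, adjusted p = 0.0177). Next to Bnip3, 3 of 13 tested mitophagy genes rose and 0 fell for late against 0.5 h. They were the receptors Sqstm1 (435 to 589 CPM at 0.5 h and 2004 to 2968 later, adjusted p = 0.00537) and Optn (56.0 to 74.3 and 122 to 234, adjusted p = 0.0228), and Gabarapl1 (83.1 to 113 and 150 to 243, adjusted p = 0.0276), a membrane tag of autophagosomes. Sqstm1 and Gabarapl1 also rose for 48 h against 0.5 h (adjusted p = 0.0136 and 0.0478), beside 1.97% of all genes. Of the 3 relatives of Ndrg1, edgeR called 0 for late or 48 h against 0.5 h, beside 11.4% and 6.59% of all genes. In these comparisons 0 and 1 had an unadjusted p under 0.05, beside 28.6% and 22.9% of all genes. DESeq2 called 0 and 1, as lower, and its numbers over all genes are given below. Their late log2 fold changes were all negative (median -0.35).

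Leaving out 1 library at a time changed no sign among the called genes of these lists but ended many of their calls. For late against 0.5 h, Slc2a1, Arnt2, Edn1 and Sqstm1 were called in 7 of 7 such fits, Hk2, Trib3 and Ddit3 in 6, Kdr and Ddit4l in 5, and the others in 1 to 4. For 48 h against 0.5 h, each gene was called in 2 to 4 of 7, and edgeR called 0 genes of these lists without replicate 1 of 48 h. The late number of ATF4 response genes that were higher ranged from 0 to 5, that of glycolysis genes from 1 to 7, that of other HIF targets from 0 to 9 and that of mitophagy genes from 1 to 7. The late number of other HIF targets that were lower ranged from 1 to 10, and that of receptors from 0 to 4.

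The genes most like each HIF gene over the 7 libraries were ranked by Pearson correlation of log2 CPM among 10011 genes with a mean of at least 5 CPM. The libraries share their groups, so these values describe likeness and carry no test. Hif1a was most like Cyp7b1 (0.995) and Slc39a6 (0.991), Epas1 most like Ifnar2 (0.998) and Dstyk (0.991), and Egln1 most like Rpp14 (0.992) and Mrpl47 (0.981). Egln3 was most like the cell cycle inhibitor gene Cdkn2b (0.988) and Trappc6b (0.986), and Vegfa most like Mettl3 (0.994) and Atp13a1 (0.988). Bnip3 was most like Ppp1cb (0.994) and Aimp2 (0.993), and Ddit4 most like Usp4 (0.996) and Nfe2l2 (0.993), which encodes the oxidative stress factor NRF2. Above a correlation of 0.95 lay 156 genes for Ddit4, 137 for Bnip3, 57 for Egln3, 34 for Hif1a and 33 for Vegfa, so that these courses were shared by many genes. Adm (Cnot4, 0.967, and Zfp426, 0.960), Ndrg1 (Capg and Cd14, 0.966 each) and Ankrd37 (Zscan26, 0.965, and Papd5, 0.957) had 3 or 4 such genes.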

How the data were processed

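The deposited tables give, for each gene, whole-number read counts in every sample, with the authors' log2 fold changes, standard errors, test score, p-values and mean normalized signal for 3 comparisons, per the file headers. Tools named in the submitters' processing notes, without roles, are DESeq2, HTSeq, cutadapt 1.11 and FastQC 0.11.5, and the builds are Rnor_6.0 and hg19. Aligner and strand setting: not given in the sources used here. Of 33005 entries per table, 460 repeat a gene and were used once. The 2 splits of each library were summed (a split pair was compared over genes with at least 20 counts). In the tables of 24 and 48 h a column names its library but not which split it is, which does not touch the sums.

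The 7 libraries were fitted in 1 edgeR 4.0.16 model (R 4.3.3) with 4 groups, TMM scaling, the tool's own low-count filter and robust quasi-likelihood dispersions (3 residual degrees of freedom, common biological coefficient of variation 0.514). P-values were adjusted by Benjamini-Hochberg over 15655 genes. SE is the absolute log2 fold change over the square root of F. CPM are counts scaled by the TMM-adjusted library size. In the late comparison the 3 libraries of 0.5 h have equal weight. Alternatives were the DESeq2 1.42.0 test, DESeq2 size factors, no filter, a filter at a mean of 5 CPM, splits taken as replicates, a fit to just the groups compared, a replicate block, and leaving out each library. For the listed genes these were added after seeing the data. The fit was tested on simulated counts with known changes. For rosiglitazone against DMSO it recovered 0 of 50 2-fold and 11 of 50 4-fold changes. For late against 0.5 h it recovered 4 and 32 of 50, and the other comparisons lay between. From 13 to 28 unchanged genes were called per comparison. For late against 0.5 h, 21 were called, beside 4, 32, 38 and 42 of 50 recovered at 2-, 4-, 8- and 16-fold. For 48 h against 24 h, 28 were called, beside 3, 21, 44 and 36 of 50. In each comparison, unchanged genes made up a larger share of the simulated calls than the adjusted p threshold aims at. A called gene may therefore be unchanged, more often than its adjusted p states. A gene that was not called may still have changed by 2-fold or 4-fold.

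The 10 genes and the lists of related genes and cell markers (182 of 189 entries matched, 1 by synonym) were chosen with earlier results of these data known. All 10 genes are named, the 2 genes most like each, and listed genes past the threshold. Where no listed gene passed, the 2 with the smallest p are given for regulators and glycolysis at 24 h, and left out elsewhere for length. Vhl, Calcrl, Ramp1, Ramp2, Ramp3, Nrp2, Plod1, P4ha2 and the ratios of reads were chosen after their values were seen. The limits for a count of 0 cover counting error alone, because the reads carry no molecular identifiers. Promoter and protein sequences were not used here.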

Additional observations from a re-analysis of the deposited data

How the results depend on the processing

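Over 14 alternative settings and left-out libraries, 587 of 675 values of single genes kept direction and side of the threshold. Of the rest, 25 lost a call, 42 gained a call and 21 changed sign. The main fit called 2 of the 10 genes for 48 h, 4 for late against 0.5 h and 0 in each other comparison. Most of the 675 values were therefore uncalled from the start, and the share kept does not describe how often calls held. By DESeq2, 2, 1212, 492, 2547 and 3337 genes were called for rosiglitazone against DMSO, 24 h against 0.5 h, 48 h against 24 h, 48 h against 0.5 h and late against 0.5 h, and 2, 2 and 5 of the 10 genes for the first day, the second day and the whole 48 h. Without a filter, 1, 334 and 19 genes were called in the first 3, and 4 of the 10 genes for 48 h against 0.5 h. With splits as replicates, which are not independent, 78, 5629, 2890, 6943 and 7936 genes were called, and 4, 4, 7 and 7 of the 10 in the same order without the DMSO comparison. With only the groups compared, 174, 0 and 2733 genes were called for rosiglitazone against DMSO, 24 h against 0.5 h and 48 h against 0.5 h, and 1 and 5 of the 10 for the DMSO comparison and 48 h against 0.5 h. That setting is the same fit for the late comparison.

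With the replicate block 1, 407 and 785 genes were called for 24 h against 0.5 h, 48 h against 0.5 h and late against 0.5 h, and 1 of the 10 genes for 48 h against 0.5 h. Egln3 (adjusted p = 0.0884 at 48 h) and Vegfa (0.0787 late) were lost. The replicate numbers do not pair the samples (correlations of replicate 1 deviations -0.31, 0.13 and -0.35 between groups). Under the block Hif1a (0.07) and Egln1 (0.13) against DMSO, and Egln1 (0.13) and Ankrd37 (-0.40) for 48 h against 24 h, changed sign.

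Leaving out each library in turn, the number of called genes ranged from 0 to 1008 for 24 h against 0.5 h, 0 to 509 for 48 h against 24 h, 12 to 2706 for 48 h against 0.5 h and 288 to 3569 late. Of the 10 genes 0 to 2, 0 to 1, 0 to 3 and 1 to 4 were called, and 0 to 1 lay lower in all late libraries (Adm, without DMSO). For the 48 h and late comparisons with 0.5 h, more genes were called without either library of 24 h and fewer without any other library. A group left with 1 library is assumed to vary like the others. Sign changes came with log2 fold changes of -0.31 to 1.47 for Egln1 at 24 h and -0.66 to 1.16 for 48 h against 24 h, -0.37 to 0.69 for Bnip3 and -0.92 to 0.10 for Adm in the same comparison, -0.30 to 0.15 for Epas1 late, and -0.04 to 0.41 for Ndrg1 at 48 h against 0.5 h. For Ankrd37 they were -0.25 to 1.38 against DMSO, -0.47 to 1.15 at 24 h, -1.41 to 0.71 for 48 h against 24 h, -1.30 to 1.17 for 48 h against 0.5 h and -0.33 to 1.04 late. The cause of these changes was not tested. Replicate 2 of 48 h, with 10886559 counts, and the single DMSO library limit the precision.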

Other observations

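Of the ratios of reads within a library that were examined after seeing the values, Hif1a to Egln3 fell outside its early range in the late libraries. It was 4.55 in DMSO, 3.07 and 2.78 with rosiglitazone at 0.5 h, 1.51 and 2.21 at 24 h, and 2.71 and 2.62 at 48 h. The replicates of 48 h differed 3.28-fold in Hif1a and were close in this ratio. The ratio of Ddit4 to Ndrg1 was 0.317 in DMSO, 0.752 and 0.589 with rosiglitazone at 0.5 h, 1.37 and 3.65 at 24 h, and 3.56 and 3.18 at 48 h. That of Hif1a to Vegfa overlapped between early and late, at 0.799 to 1.83 and 0.734 to 1.68. No test was run on these ratios.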
